A study of Rattus norvegicus with 4 samples.

Results

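The mucus that coats the stomach is made by pit cells at the surface and by mucous neck cells deeper in the gland, and the 6 genes described here encode secreted products of these cells together with a calpain found in them. They are the mucin Muc5ac, the trefoil peptides Tff1, Tff2 and Tff3, the gastrokine Gkn1 and the calpain Capn8. Matching by platform gene symbol gave 7 probe sets among the 15866 of the chip: 1 for each gene, and 2 for Capn8. All 7 had enough signal to be tested. Muc5ac forms the gel, and trefoil peptides are small, disulfide-bonded peptides stored and released with mucin that help surface cells to close wounds. Tff1 is a pit cell product, Tff2 is made by mucous neck cells, and Tff3 is best known from intestinal goblet cells. Gkn1 is stored in pit cell granules, and Capn8 is a calcium-dependent protease.

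Mucosa was scraped from the acid-secreting body of the stomach of female Sprague-Dawley rats, given as 8 weeks of age, 21 days into treatment. The titles name the tissue oxyntic mucosa on all 4 chips, and another label of the vehicle chip names it corpus mucosa. The controls, 8 rats given only the vehicle of the depot, were combined into 1 RNA pool and hybridised to a single Affymetrix RAE230A chip. The 6 treated rats received octreotide LAR, a slow-release form of the somatostatin analogue octreotide, at 5 mg per animal, and were combined by 2 into pools 1, 2 and 3 with a chip each. The vehicle sample carries the drug's name in its source field, and its title, which was followed here, gives vehicle. Atp4a, the proton pump subunit of parietal cells, and Pgc, a pepsinogen of chief cells, gave bright signals on all 4 chips (26692.5 and 56280.8 on the vehicle chip). Each value below is a linear signal intensity of a probe set, and signals of different probe sets cannot be set against each other, because every probe set binds with its own strength. Differences are treated minus vehicle on the scale log2(signal + 16), with 95% intervals from limma. The vehicle value has no replicate, so its spread was taken to be that of the treated pools. An exact permutation test of 3 chips against 1 cannot give a two-sided p below 0.50 and was not run.

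Across the chip, 7 probe sets were called higher and 1 lower at an adjusted p under 0.05, and the one called lower was Hdc, the histamine-forming enzyme of the endocrine cells that respond to gastrin. Medians over all tested probe sets stayed within 0.01 of 0 on each pool. Each chip had its own fluidics module, so module and pool cannot be told apart. In a scraped sample, more cells of a type and more RNA per cell cannot be told apart either.

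None of the 6 genes was called: 0 of 7 probe sets had an adjusted p under 0.05, where 0.084% of all 9520 tested probe sets did. Counted by each gene's brightest probe set, 5 of 6 lay above the vehicle chip on every treated pool (Muc5ac, Tff1, Tff2, Gkn1 and Capn8), and none lay below it on every pool. Over the 7152 named genes tested, 25.2% lay above the vehicle chip on every pool and 24.0% below it. Of the 6 genes, Tff2 and Capn8 were higher at an unadjusted p under 0.05, where 2.91% of tested genes were. The median difference over the 6 genes was 0.21 on the log2 scale, with 0.25, 0.28 and 0.20 on pools 1, 2 and 3.

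**Figure D1:**
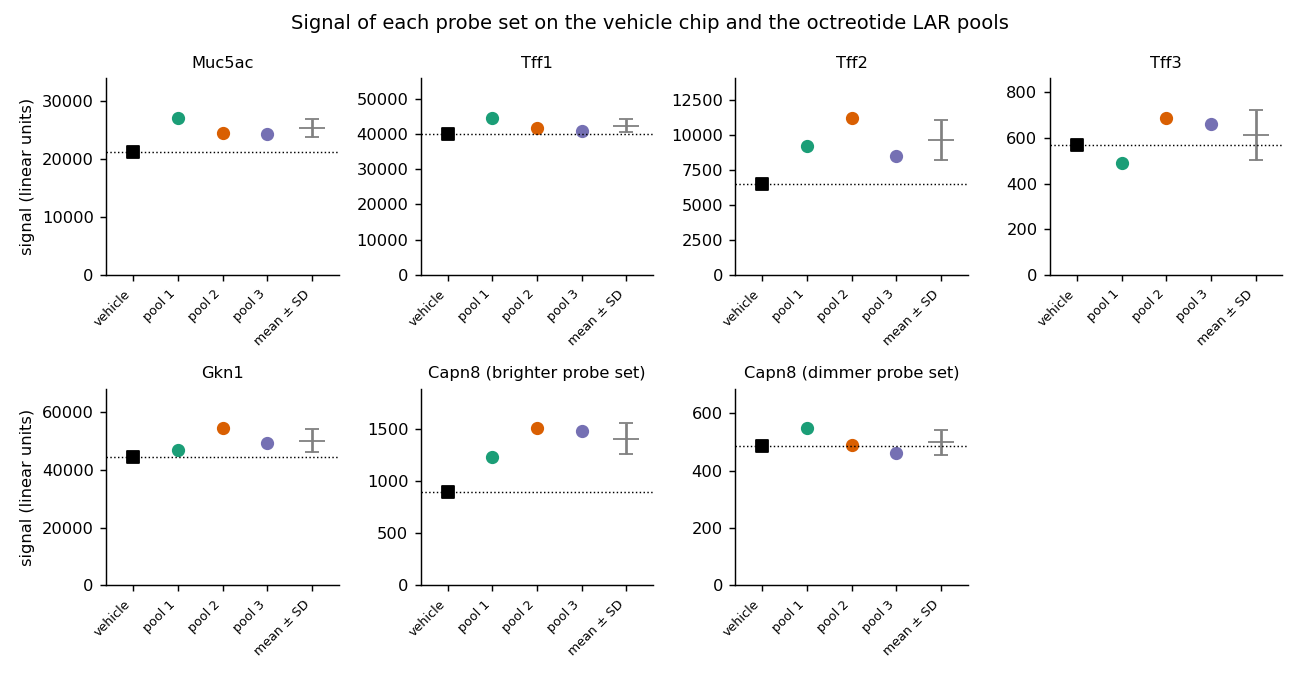
Linear signal of each of the 7 probe sets on the vehicle chip (black square, dotted line) and on octreotide LAR pools 1, 2 and 3 (coloured circles), with the treated mean ± SD over 3 chips in grey; each panel has its own axis starting at 0. Tff2 and the brighter Capn8 probe set lie well above the vehicle square on every pool, Muc5ac, Tff1 and Gkn1 lie closer to it, and Tff3 and the dimmer Capn8 probe set fall on both sides.

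Muc5ac, the gel-forming mucin of the surface, reached 21219.6 on the vehicle chip, against 27149.1, 24534.2 and 24295.9 on pools 1, 2 and 3. All treated values were above the vehicle value, and pool 1 was the highest. The treated mean was 25326 ± 1583 (SD, n = 3), higher than vehicle by 0.25 on the log2 scale (interval from -0.06 to 0.56; limma unadjusted p = 0.10, adjusted p rounded to 1). In folds that interval runs from 0.96 to 1.48. The gene next to Muc5ac in the GRCr8 gene table is Muc2, the gel-forming mucin of intestinal goblet cells. Muc2 was dim, at 239.6 on the vehicle chip against 225.83 ± 13.1 (SD, n = 3), and its log2 difference was -0.08. The other mucins that flank Muc5ac there, Muc6 and Muc5b, have no probe set named for them here.

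Tff1, the trefoil peptide of pit cells, gave 40222.2 on the vehicle chip and 44742.1, 41819.9 and 40958.1 on the treated pools. Pool 1 was again the highest, and pool 3 was only slightly above vehicle. The mean was 42507 ± 1983 (SD, n = 3), and the log2 difference was 0.08, with an interval from -0.22 to 0.38. A change of Tff1 by more than 1.30-fold upwards or to below 0.86 of the vehicle level lies outside that interval. Without pool 1 the difference of Tff1 was 0.04, and with quantile normalization 0.05.

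Tff2, made in mucous neck cells, gave 6470.4 on the vehicle chip and 9203.8, 11251.5 and 8483.4 on pools 1, 2 and 3. Every pool lay above the single vehicle chip, as for 25.2% of all tested genes. Pool 2 was the highest, and the treated pools differed from each other more than they did for Muc5ac or Tff1. The treated mean was 9646.2 ± 1436 (SD, n = 3), 1.48 times the vehicle level, with a log2 difference of 0.56 and an interval from 0.19 to 0.94. This did not pass over all probe sets (limma unadjusted p = 0.0069, adjusted p = 0.72). Few bright probe sets were higher by so much. Among the 500 with the highest mean signal, 2 were higher by as much as Tff2 or more: Tff2 itself and Lgals4, a galectin of digestive epithelium, which was called at a log2 difference of 1.04. That cut is the value of Tff2 itself, and 4 of the 500, these included, were higher by more than 0.5. This set of 500 was chosen after values were seen and is a description only.

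Tff3, the trefoil peptide best known from intestinal goblet cells, gave 570.6 on the vehicle chip and 488.2, 689.1 and 663.2 on the treated pools. It was below the vehicle value on pool 1 and above it on pools 2 and 3. The mean was 613.5 ± 109 (SD, n = 3), a log2 difference of 0.09 (95% interval -0.44 to 0.61). Without pools 1, 2 and 3 the difference was 0.24, -0.003 and 0.02.

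The trefoil genes lie side by side on chromosome 20 in the GRCr8 gene table, in the order Tff3, Tff2, Tff1, with no other protein-coding gene between them. Their differences were unlike in size. On pools 1, 2 and 3 the log2 difference of Tff1 was 0.35, 0.74 and 0.36 below that of Tff2, so the shift of Tff2 was the larger on every pool. The difference of Tff2 exceeded that of Tff3 by 0.73, 0.53 and 0.18. Neither gap was tested. On the other side of Tff3 lies Abcg1, a cholesterol transporter, which had 547.3 on the vehicle chip against a treated mean of 541.6.

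Gkn1, the gastrokine of pit cells, gave 44323.7 on the vehicle chip and 46854.2, 54379.4 and 49293.9 on the treated pools. All treated values were above the vehicle value, with pool 2 highest and pool 1 closest to it. The mean was 50176 ± 3839 (SD, n = 3), a log2 difference of 0.18 (95% interval -0.13 to 0.48). Without pool 2 the difference of Gkn1 was 0.12, and with quantile normalization 0.085. Its value on pool 3 was the highest signal of any probe set on that chip. The gastrokine neighbours Gkn2 and Gkn3 have no probe set named for them here.

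Gkn1, Tff1 and Muc5ac ranked 3, 7 and 23 by mean signal among all probe sets, and the brightest signals as a group lay somewhat higher on the treated chips. Over the 100 brightest probe sets, which include these 3, the median log2 difference was 0.10, with 0.15, 0.10 and 0.04 on pools 1, 2 and 3, and 49 of the 100 lay above the vehicle chip on every pool. The differences of Tff1 on the same pools were 0.154, 0.056 and 0.026, against those medians of 0.149, 0.10 and 0.039, so that Tff1 was marginally larger on pool 1 and smaller on pools 2 and 3. Those of Muc5ac were 0.36, 0.21 and 0.20, larger on each pool, and those of Gkn1 were 0.08, 0.29 and 0.15, smaller on pool 1 and larger on pools 2 and 3. With quantile normalization, which makes the signal distribution of all chips equal, the median of these 100 was 0.03. The difference of Gkn1 then became -0.13, 0.12 and 0.26 on pools 1, 2 and 3 and that of Tff1 0, 0 and 0.15. That left 3 of the 6 genes (Muc5ac, Tff2 and Capn8) above vehicle on every pool in place of 5. Under the same scaling Tff2 was at 0.53, the brighter Capn8 probe set at 0.65 and Muc5ac at 0.20. Whether the scale of the brightest signals takes part in the differences of Gkn1, Tff1 and Muc5ac was not tested further.

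**Figure D2:**
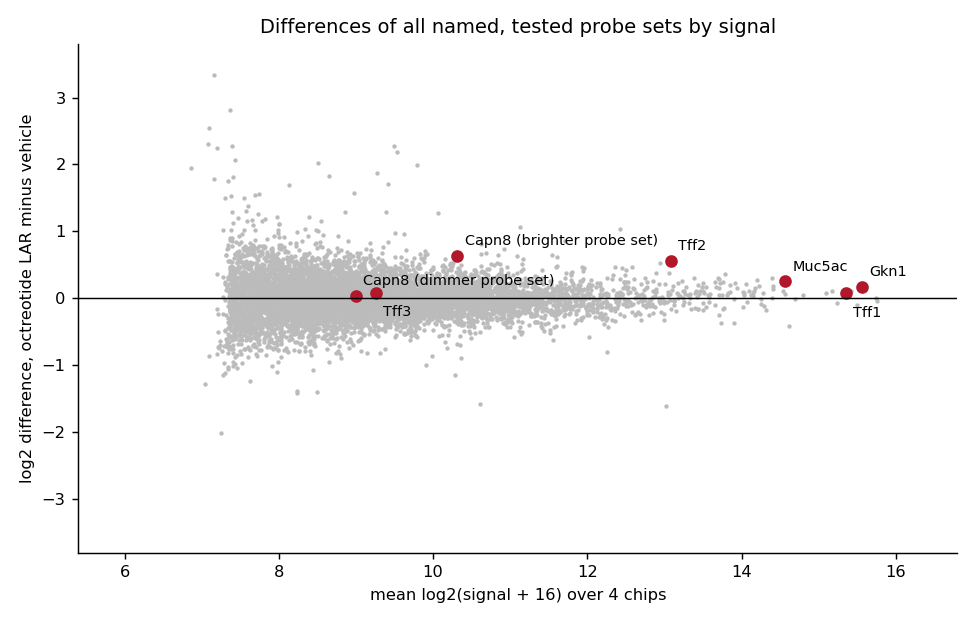
Log2 difference (octreotide LAR minus vehicle, vertical axis) against mean log2(signal + 16) over 4 chips (horizontal axis) for every tested probe set with a named gene (grey), with the 7 probe sets of the mucin, trefoil, gastrokine and calpain genes in red. Gkn1 and Tff1 sit at the bright end close to their neighbours, and Muc5ac, at 0.25, lies above most of the brightest probe sets. Tff2, at 0.56, stands above nearly all probe sets of like brightness.

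Capn8, the calpain of gastric mucous cells, was read by a pair of probe sets that did not give the same answer. The brighter one gave 900 on the vehicle chip and 1239.1, 1510.3 and 1487.6 on pools 1, 2 and 3. All treated values exceeded the vehicle value by a wide margin. The mean was 1412.3 ± 150.5 (SD, n = 3), 1.55 times vehicle, with a log2 difference of 0.64 and an interval from 0.21 to 1.06 (limma unadjusted p = 0.0068, adjusted p = 0.72). The dimmer one gave 485.9 on the vehicle chip and 547.7, 490.4 and 462.0 on the treated pools, values on both sides of vehicle. Its mean was 500.03 ± 43.7 (SD, n = 3), a log2 difference of 0.04 (95% interval -0.46 to 0.53). Within a chip, the brighter probe set shifted more than the dimmer one by 0.29, 0.72 and 0.79 on pools 1, 2 and 3. Averaging both probe sets gave a difference of 0.34 for the gene. The platform annotation ties them to different source transcripts, and which Capn8 transcripts each one detects is not given in the sources used here.

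Calpains cut their target proteins at few sites and so alter rather than destroy them, and Capn8 is known to pair with Capn9 in the gastric mucous cell. Of 12 further genes of the calpain system with a probe set, 9 were tested. None passed over all probe sets, 1 lay above vehicle on every pool and 2 below it, against 25.2% and 24.0% of all tested genes. Their median log2 difference was 0.04, against 0.00 over all tested genes, and single genes ran from -1.06 to 0.46. Capn9 gave 745.6 on the vehicle chip and 717.4, 1229.0 and 923.2 on the treated pools, a log2 difference of 0.32 (95% interval -0.25 to 0.89). It was below vehicle on pool 1, the pool on which the brighter Capn8 probe set was also closest to vehicle. Capn2, a ubiquitous calpain that lies near Capn8 on chromosome 13, gave 690.7 against 991.1, 839.1 and 1042.5, a log2 difference of 0.46 (limma unadjusted p = 0.048, adjusted p rounded to 1). Capns1, the small subunit shared by the ubiquitous calpains, and Cast, the calpain inhibitor calpastatin, differed by 0.04 and -0.02. A dimmer Cast probe set was at -0.57 with 3 of 3 pools below vehicle, and did not pass. The largest size of difference in the group was that of Capn15, at -1.06, with 265.6 on the vehicle chip and 64.3, 120.9 and 207.1 on the pools. Its values on pools 1 and 2 were under 149.7, the mean signal that the filter required. Capn9, Capns1 and Cast were chosen after their values were seen.

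**Figure D3:**
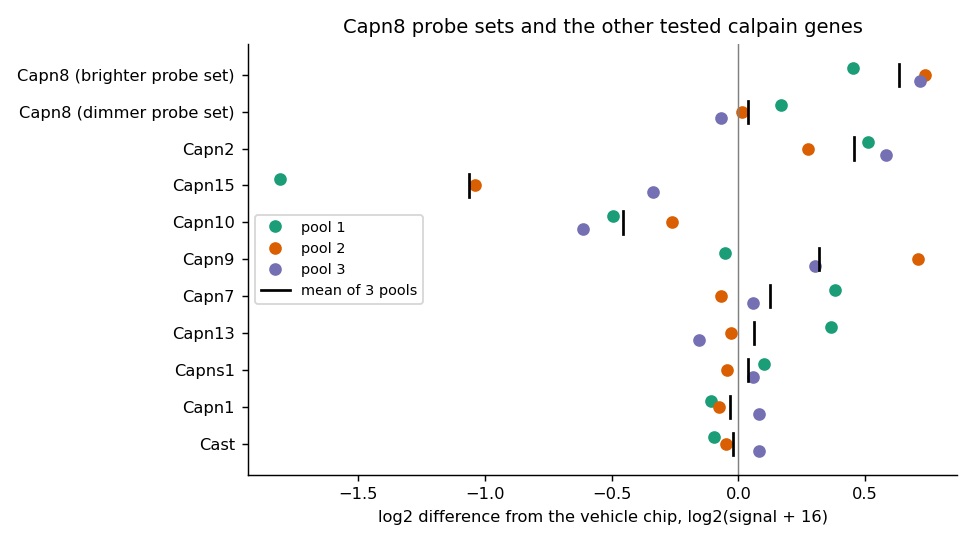
Log2 difference from the vehicle chip (horizontal axis) on pools 1, 2 and 3 (coloured circles) and their mean (black bar) for both Capn8 probe sets and the 9 other tested genes of the calpain system. The brighter Capn8 probe set and Capn2 lie to the right of 0 on every pool, while the dimmer Capn8 probe set, Capns1, Capn1 and Cast lie around 0.

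Other genes of pit and surface mucous cells leaned the same way as the 6 described above. Of 17 such genes listed, 11 had a probe set and all of these were tested. None passed over all probe sets. All 11 were higher in the mean and 9 on every pool, against 25.2% of all tested genes. Several of the 11 are bright, and bright probe sets lay above vehicle on every pool more often. The share was 49% over the 100 brightest and 31.8% over the 500 brightest. With quantile normalization 7 of the 11, not 9, were above vehicle on every pool. The median log2 difference was 0.23, with 0.23, 0.24 and 0.28 on pools 1, 2 and 3. An unadjusted p under 0.05 was reached by 3 of them, all higher: Aldh3a1, Lgals3 and Krt19. Aldh3a1, an aldehyde dehydrogenase of surface epithelia, gave 1265 on the vehicle chip and 3436, 3219.7 and 1731.1 on the pools, a log2 difference of 1.07 (95% interval 0.42 to 1.72; limma unadjusted p = 0.0036, adjusted p = 0.52). Pool 3 was much closer to vehicle than pools 1 and 2. Without pool 1, 2 or 3 the difference of Aldh3a1 was 0.89, 0.94 and 1.38. It passed in each of these smaller fits, but not with all pools. Leaving out any pool also raised the count of calls over the whole chip, so those passes do not single out a pool. Lgals3, a galectin, had 1814.8 against 2461 ± 216 (SD, n = 3), and Krt19, a keratin of simple epithelia, had 11594.8 against 15044 ± 1378 (SD, n = 3). Aldh3a1 and Lgals3 are also made by stratified squamous epithelium. Muc1, the membrane mucin of the surface, named here after its values were seen, had 4071.5 against 4771.4 ± 176 (SD, n = 3), with every pool above vehicle. At the other end of the list were Ctse, an aspartic protease of surface cells, at 0.05, and Psca, a surface antigen of pit cells, at 0.08, both also named after their values were seen.

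**Figure D4:**
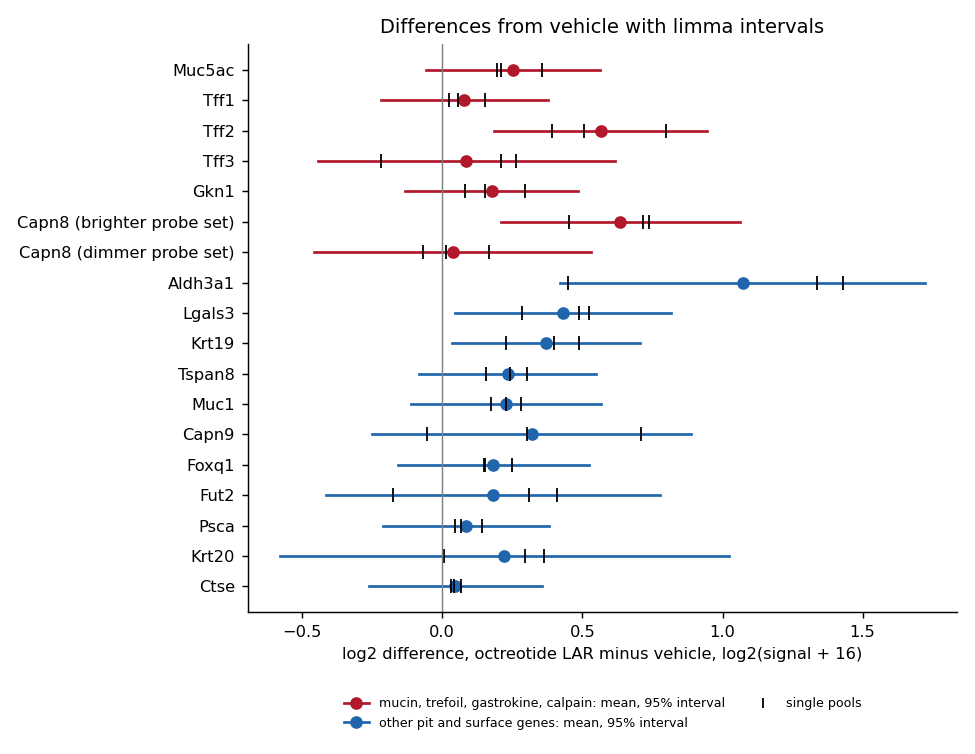
Mean log2 difference (octreotide LAR minus vehicle, dots) with limma 95% intervals (lines) and single pools (black ticks) for the 7 probe sets (red) and for the 11 other tested pit and surface genes (blue). The intervals of Tff2, the brighter Capn8 probe set, Aldh3a1, Lgals3 and Krt19 lie above 0, and all others include 0.

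Markers of the mucous neck cell other than Tff2 were barely covered. Of 6 listed, Cd44, an adhesion receptor, alone was tested, and its probe sets differed. The brighter one was at a log2 difference of 0.07 (limma unadjusted p = 0.83), and a dimmer one at 0.67, with 114.2 on the vehicle chip and 299.1, 99.9 and 227.4 on the pools (limma unadjusted p = 0.21). Neither lay on one side of vehicle on every pool. Aqp5, a water channel, was dim, between 10.9 and 63 on the 4 chips. Muc6, the neck cell mucin, could not be read beside Tff2. Markers of intestinal goblet cells were dim or uneven. Of 12 listed, 3 were tested and none passed: Fcgbp, a mucus protein, had 239.4 against 401.6, 305.2 and 376.5 on the pools, Muc2 is given above, and Clca1, a protein of goblet cell granules, had 1785.5 on the vehicle chip and 1170.8, 1493.4 and 4102.7 on the pools. The value of Clca1 on pool 3 stood apart from the others, and Tff3 on that pool was not the highest.

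Before release, mucins are folded in the endoplasmic reticulum, decorated with sugar chains in the Golgi and packed into granules. Of 17 genes of these steps on the chip, 16 were tested and none passed. Among them, 6 were above vehicle on every pool and 2 below it, against 25.2% and 24.0% of all tested genes, and the median log2 difference was 0.05. The smallest p belonged to Gcnt3, an enzyme that branches the sugar chains of mucins, with 1304.5 on the vehicle chip and 2169.5, 1794 and 2704.1 on the pools, a log2 difference of 0.74 (limma unadjusted p = 0.0050, adjusted p = 0.61). Without pool 2 the adjusted p of Gcnt3 was 0.018, and without pool 1 or 3 it did not pass. Sytl2, a protein that tethers mucous granules to the apical membrane, followed with 1184.5 against 1601.8 ± 176 (SD, n = 3), a difference of 0.42. St3gal1, a sialyltransferase, had 138.5 against 227.4 ± 19.9 (SD, n = 3) and did not reach an unadjusted p of 0.05. Of 13 listed growth factors and candidate trefoil receptors on the chip, 7 were tested and none passed. Cxcr4, a chemokine receptor proposed to respond to Tff2, was dim, with 188.9 against 201.87 ± 25.5 (SD, n = 3); it was named after its values were seen.

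The pools did not order the 6 genes in the same way. Muc5ac, Tff1 and the dimmer Capn8 probe set were highest on pool 1, whereas Tff2, Gkn1, Tff3 and the brighter Capn8 probe set were highest on pool 2. Pool 1 gave the lowest treated value of Gkn1, Tff3 and that Capn8 probe set. The treated spread was smallest for Tff1, with a coefficient of variation of 4.67%, and largest for Tff3, with 17.8%, while Tff2 had 14.9% and the brighter Capn8 probe set 10.7%. Each pool holds RNA of 2 rats, so these spreads are between pools and contain animal and technical variation alike.

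The genes with a pattern most like those of Capn8 and Tff2 over the 3 pools were found by the root mean square distance between log2 differences. Closest to the brighter Capn8 probe set were Bmp2, a bone morphogenetic protein, at a distance of 0.02, then Tox4 at 0.035 and Icam2 at 0.05. Closest to Tff2 were S100a13 at 0.02, then Commd5 and Lactb2, both at 0.05. With 3 pools such likeness is easily met: 14 of 7146 genes lay within 0.1 of Capn8 and 17 within 0.1 of Tff2. Bmp2 gave 669.2 on the vehicle chip and 916.6, 1124.5 and 1130.4 on the pools, and it did not pass (limma adjusted p = 0.80).

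Markers of other cell types moved on the same chips. Of 15 genes of keratinising squamous epithelium on the chip, 12 were tested. Above vehicle on every pool were 11 of them, against 25.2% of all tested genes. Called higher were 5 of them, where 0.084% of all tested probe sets were called in either direction. Those called were Loricrin, Krt10, Krt1, Lgals7 and Sprr3, structural proteins of cornifying cells and a galectin, with log2 differences of 2.28, 2.00, 2.19, 2.81 and 1.83. Over all 12 tested genes of the list, the summed signal was 3336 on the vehicle chip and 7286 to 10953 on the treated pools. The median log2 difference of the same 12 genes was 2.07, 1.62 and 1.44 on pools 1, 2 and 3. The exception among the tested genes was Sbsn, the brightest of them on the vehicle chip at 1443.6. It fell below vehicle on every pool, to 1366.8, 1278.9 and 1122.3, and was named after its values were seen. Krt4, Ivl and Tp63 of that list lay under the filter and were not tested. Krt4 stood at 134.9 on the vehicle chip, above it on pool 1 (363) and below it on pools 2 and 3 (23 and 14.4). Ivl was dim but above vehicle on every pool, and Tp63 went both ways. The order of the pools for this list was that of Muc5ac, Tff1 and the dimmer Capn8 probe set. It was not that of Tff2, Gkn1 or the brighter Capn8 probe set. The smooth muscle and proliferation lists and the 100 brightest probe sets had the same order, so it is not particular to the squamous list. With 3 pools an order is easily shared, and its likeness was not tested. Of 9 tested parietal cell genes none passed, with medians of 0.10, -0.33 and -0.16. Of 8 tested chief cell genes none passed, with medians of -0.24, -0.11 and -0.11. One of them, Cym, the milk-clotting protease chymosin, was far from these medians, with 19071.1 on the vehicle chip and 3952.1, 8203.8 and 7560.9 on the pools, a log2 difference of -1.60 (limma unadjusted p = 0.00016, adjusted p = 0.097). The 8 tested genes of histamine-forming endocrine cells, among them Hdc, had medians of -0.53, -0.76 and -0.74. The 11 tested smooth muscle genes, of the muscle that underlies the mucosa, had medians of 0.26, -0.01 and -0.10. The 10 tested proliferation genes had medians of 0.46, 0.18 and 0.13, led by Mki67 at 1.15 (limma unadjusted p = 0.0023, adjusted p = 0.47). Without pool 1, 2 or 3 the difference of Mki67 was 0.94, 1.30 and 1.21. It passed without pool 2, and without pool 1 or 3 it did not. Gast, the gastrin gene of the antrum, had 664.9 on the vehicle chip and 1160.8, 611.1 and 696.7 on the pools, so that pool 1 was the highest. The 4 tested genes listed for antral endocrine cells, Gast among them, had medians of -0.09, -0.42 and -0.14. Of these 4, 1 lay above vehicle on every pool and 2 below it, against 25.2% and 24.0% of all tested genes. The part of these other tissues in the differences of the mucous cell genes was not tested.

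**Figure D5:**
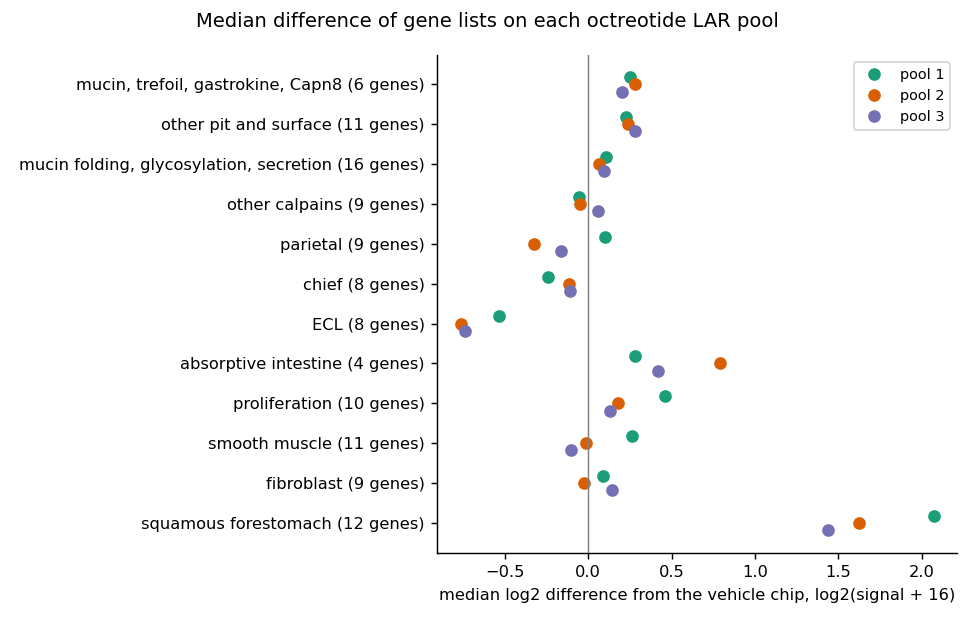
Median log2 difference from the vehicle chip (horizontal axis) of 12 gene lists on pools 1, 2 and 3 (coloured circles), with the number of tested genes of each list. The 6 mucin, trefoil, gastrokine and calpain genes lie between 0.20 and 0.28 and the other pit and surface genes between 0.23 and 0.28 on the pools, the squamous list lies between 1.44 and 2.07, and the parietal list falls on both sides of 0.

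Fabp2, which binds fatty acids in absorptive cells of the gut, and Lgals4 showed larger differences than any of the 6 genes. Lgals4 had 3199.7 on the vehicle chip and 6203.6, 7232.5 and 6344.1 on the pools (limma adjusted p = 0.031), and the call was lost under several alternatives. Fabp2 had 533.2 against 1331 ± 218 (SD, n = 3) and missed the threshold (limma adjusted p = 0.063). Under alternatives that kept all pools, its limma adjusted p ran from 0.027 (robust moderation) to 0.56 (without the filter). It was 0.42 without the trend and 0.15 with quantile normalization. Without pool 1, 2 or 3, Fabp2 differed by 1.42, 1.195 and 1.23. It passed in each of these smaller fits, but leaving out any pool raised the count of calls over the whole chip. Those passes therefore do not settle the call of Fabp2. Fabp2 and Lgals4 were both highest on pool 2, as were Tff2 and the brighter Capn8 probe set. The other tested genes of absorptive intestine, Cdx2 and Fabp1, differed by -0.14 and -0.12 and went both ways.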

How the data were processed

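Gene expression in 4 RNA pools was read on 1 chip each. The deposited table holds linear signal intensity per probe set. The algorithm that made it is not given in the sources used here; trimmed means (2% off either tail) were 496.8 to 497.2, and medians 223.7 to 233.4. Per the file headers, the chips shared 1 lot. Detection calls were not used here.

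Signals were transformed as log2(signal + 16) without further scaling. Probe sets whose mean signal over 4 chips lay under the 40th percentile (149.7) were left out, leaving 9520. All were fitted together with limma 3.58.1 in R 4.3.3 (lmFit, eBayes with trend, 2 residual and 10.7 prior degrees of freedom), two-sided, and p-values were adjusted by Benjamini-Hochberg and called under 0.05. The fit was checked on simulated data. These gave the vehicle chip the spread of the treated pools, so the check says nothing about a vehicle pool that behaves otherwise. Probe sets were named by platform annotation updated by Entrez ID through the GRCr8 table (12748 of 12783 matched); 312 named several genes and 2771 none. Lists used a gene's brightest probe set. The labels give the pools as different animals, so p-values rest on the spread between treated pools, moderated over all tested probe sets. The vehicle pool holds 8 rats and each treated pool 2, and an equal spread of both was assumed, not measured. The number of chips limits precision.

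The members, lists and tests were chosen with earlier results of these data known. Names were drawn from all member probe sets, up to 3 genes of each list with the smallest p, every called list gene, the 3 genes most like each of the 2 members with the largest difference, and reference genes; others are marked. Planned protein descriptions were not made. Alternatives changed pseudocount, filter, scaling, moderation, probe set choice and pools.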

Additional observations from a re-analysis of the deposited data

How the results depend on the processing

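No paired analysis was possible because the vehicle group has a single chip. None of the 7 probe sets passed under any of the alternatives tried (14 for each, 13 for the dimmer Capn8 probe set); the limma adjusted p of Tff2 ran from 0.058 (without pool 1) to 1, and that of the brighter Capn8 probe set from 0.083 (without pool 1) to 1. Muc5ac, Tff1, Tff2, Gkn1 and the brighter Capn8 probe set kept their sign in the mean under all of them. Leaving out a pool moved Tff3 between -0.003 and 0.238 and the dimmer Capn8 probe set between -0.029 and 0.090, so neither has a settled sign. With quantile normalization 3 of the 6 genes, not 5, were above vehicle on every pool. Averaging probe sets lowered Capn8 from 0.64 to 0.34.

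The count of probe sets called was 8. It was 5 with a pseudocount of 64, 4 with quantile normalization, 5 with centring on the 75th percentile and 13 with robust moderation. It was 0 of 15866 by limma without the filter, where 776 had an unadjusted p under 0.05, and 0 without the trend, where 456 did. Without a pool it was 23 to 52: 45, 52 and 23 without pools 1, 2 and 3, on the same vehicle chip. A filter on the mean log2 value, added after seeing the data, gave 10. The causes were not tested. Lgals4 lost its call without the filter, with each scaling and without the trend. With 1 vehicle chip, a peculiarity of the vehicle pool and an effect of treatment cannot be told apart.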
